A study of Homo sapiens with 6 samples.

Results

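The DEAD and DEAH box RNA helicases are named DDX and DHX for the amino acids of their second helicase motif. Here they were taken as every protein-coding gene of the annotation whose symbol is DDX or DHX followed by a number, which gave 54 genes of 19785. Their promoters were examined in Myc chromatin immunoprecipitation sequencing (ChIP-seq) of MDA-MB-231 cells, a human triple-negative breast cancer cell line. Parental cells were compared with TKO cells, made from them by deleting TXNIP, the thioredoxin interacting protein, with CRISPR/Cas9 and isolating clones from single cells, to ask whether TXNIP loss changes where Myc binds. Each cell line had 2 Myc libraries, for which the lists of peaks were analysed, and input chromatin as the control for peak calling. The sources do not say whether the TKO libraries came from 1 clone or several.

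Myc dimerises with Max and binds the E-box, a 6-base element spelled CACGTG, at the promoters of many genes for ribosome production and RNA metabolism. DEAD box proteins use ATP to open short RNA duplexes or to remove proteins from RNA, whereas DEAH box proteins move along a strand. Between them they act at almost every step of an RNA's life, from the nucleolus and the spliceosome to export, translation and decay.

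A gene had a promoter peak in a library when a summit lay no farther than 1 kb from one of its transcription start sites (TSS), and it is called bound below. Where it had several, the peak of highest fold was used. Fold is the authors' ratio of reads at the summit to the local background, with 1 added to each. The percentile of a peak is the share of its own list that has a lower fold, and offsets are in bp along the gene from the nearest TSS, negative when upstream. Pairs of values are in the order replicate 1, replicate 2.

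The parental lists held 3720 and 5719 peaks, and the TKO lists 27213 and 25887. The depth estimated from the lists was 26.4 and 22.2 M reads for parental and 19.9 and 13.0 M reads for TKO libraries. By that estimate the TKO lists were longer at lower depth. The peak lists hold no measure of TXNIP itself, and no marker of cell identity, so they give no check of the knockout or of the cell line. The replicates were called biological by the study, and the smallest p that an exact permutation test of 2 libraries against 2 can give is 0.333.

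An E-box lay within 50 bp of the summit in at least 1 library at 12 helicase genes. The shares in each library are given below beside those of all bound genes. At 9 of the 35 helicase genes bound in 3 or 4 libraries (25.7%) an E-box lay within 100 bp of the summit in every library where the gene was bound, beside 18.0% of the 3070 protein-coding genes bound in 3 or 4. One E-box of each of these 9 genes is shown, because at all of them except DDX54 the same element lay within 100 bp of the summit in every library where the gene was bound. Each is 30 bases of GRCh37 (hg19), 5′ to 3′ on the strand of the gene, with the E-box in capitals.
DDX18: ggccgagctgcgCACGTGcggccggaaggg
DDX3X: gacacctacggtCACGTGgcctgccgccct
DDX42: gctgtgtgggacCACGTGgccagaggcaag
DDX54: cgccggcctgagCACGTGtctcggggcttg
DDX59: agctgcttgggaCACGTGgctccagaggtt
DHX33: gggagccgccagCACGTGgcggcgaggaag
DHX34: ggagctgaggcgCACGTGgctatgcttggg
DHX35: gctgagcagggtCACGTGggctcgggggcg
DHX37: ggtctgggaaccCACGTGggctgggtttcg

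The E-box of DDX18 (chr2:118572254-118572283, plus strand) lay in an untranslated exon, 1 bp past the TSS. That of DDX3X (chrX:41192795-41192824, plus strand) lay 208 bp past the TSS in an untranslated exon, and that of DHX37 (chr12:125473619-125473648, minus strand) 43 bp past it. DHX33 (chr17:5372263-5372292, minus strand) also had its E-box in an untranslated exon, 24 bp past the TSS. The E-box of DDX54 (chr12:113622910-113622939, minus strand) was intronic, 358 bp past the TSS, and that of DDX42 (chr17:61851197-61851226, plus strand) lay at an offset of -12 from the nearest TSS, inside an intron of another transcript. The other 3 were upstream of their genes, at -248 in DHX34 (chr19:47852310-47852339, plus strand), -137 in DHX35 (chr20:37590791-37590820, plus strand) and -626 in DDX59 (chr1:200639646-200639675, minus strand).

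At DDX3X the parental summits were 21 and 1 bp from the E-box and the TKO summits 6 and 36 bp. It was the only helicase gene with the element within 50 bp in all 4 libraries. DDX59 and DHX37 had it within 50 bp in each of the 3 libraries where they were bound. These 3 genes were 8.57% of the 35 helicase genes bound in 3 or 4 libraries, beside 7.59% of the 3070 protein-coding genes so bound. At DDX18 the E-box was 8, 23 and 10 bp from the summit in 3 libraries and 82 bp in TKO replicate 2. DHX33, DHX34 and DHX35 showed the same kind of shift, with the E-box up to 59, 74 and 63 bp away in the library where it was farthest. At DDX42 it was 13 and 10 bp away from the parental and 43 and 53 bp from the TKO summits. At DDX54 the printed E-box lay 7 and 4 bp from the TKO summits but 471 bp from the summit of parental replicate 1, which was that of another peak of the gene with an E-box of its own.

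**Figure D1:**
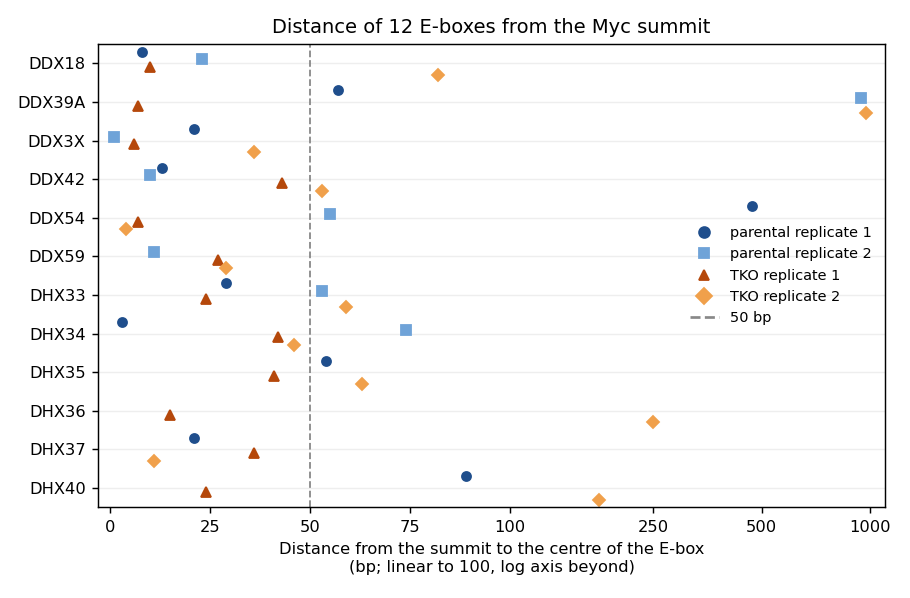
Distance in bp from the summit to the centre of the E-box for the 12 helicase genes with an E-box within 50 bp of the summit in at least 1 library. Symbols are libraries, the dashed line is at 50 bp and the axis is linear to 100 bp and logarithmic beyond; DDX3X lies left of the line in all 4 libraries, and DDX39A, DDX54, DHX36 and DHX40 have summits over 100 bp from the element.

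Within 50 bp of the summit the E-box was found at 6 of 29 and 4 of 31 bound helicase genes in parental cells, or 20.7% and 12.9%. In TKO cells it was found at 12 of 49 and 5 of 47, or 24.5% and 10.6%. Among all bound genes the shares were 21.6% and 18.5% in parental and 9.14% and 8.10% in TKO cells. The replicates of TKO differed from each other by more than the group means, 16.8% ± 5.51 and 17.6% ± 9.79 (SD, n = 2), and the exact permutation test gave p = 1.00. Windows of the same length 1 kb to either side held an E-box in 2.04% to 5.17% of cases at helicase genes. The E-box variant CACGCG, read on both strands, lay within 50 bp of the summit of DDX11, DDX21 and DDX56 in all 4 libraries. It was found at 24.1% and 16.1% of bound helicase genes in parental and 10.2% and 8.51% in TKO cells, beside 15.3%, 13.7%, 10.1% and 9.50% of all bound genes.

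More helicase genes carried a Myc promoter peak in TKO cells. In parental cells 29 and 31 of the 54 were bound, and in TKO cells 49 and 47 were. These are 53.7% and 57.4% in parental and 90.7% and 87.0% in TKO cells. The share of all protein-coding genes bound was 12.2% and 12.9% in parental and 49.1% and 49.7% in TKO cells. The mean count was 30 ± 1.41 and 48 ± 1.41 genes (SD, n = 2), a ratio of 1.60, with both TKO libraries above both parental ones and p = 0.333 in the exact permutation test, two-sided. Over all genes the ratio of bound shares was larger, 3.94. The helicase share was thus 4.39 and 4.45 times that of all genes in parental cells and 1.85 and 1.75 times in TKO cells (p = 0.333 in the same exact test). With 49.1% and 49.7% of all genes bound in TKO cells, even all 54 helicase genes would have given ratios below the parental ones. The fall was therefore fixed in advance, and the test on it decides nothing. The count ratio likewise could not have reached 3.94, because 30 genes were already bound in parental cells on average. Every list was also cut to its 3720 peaks of highest −log10 p-value, not of highest fold. Then 29 and 23 helicase genes were bound in parental cells and 30 and 27 in TKO cells. The shares were 4.39, 4.70, 4.17 and 3.69 times those of all genes. At equal length the counts of the cell lines overlapped.

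**Figure D2:**
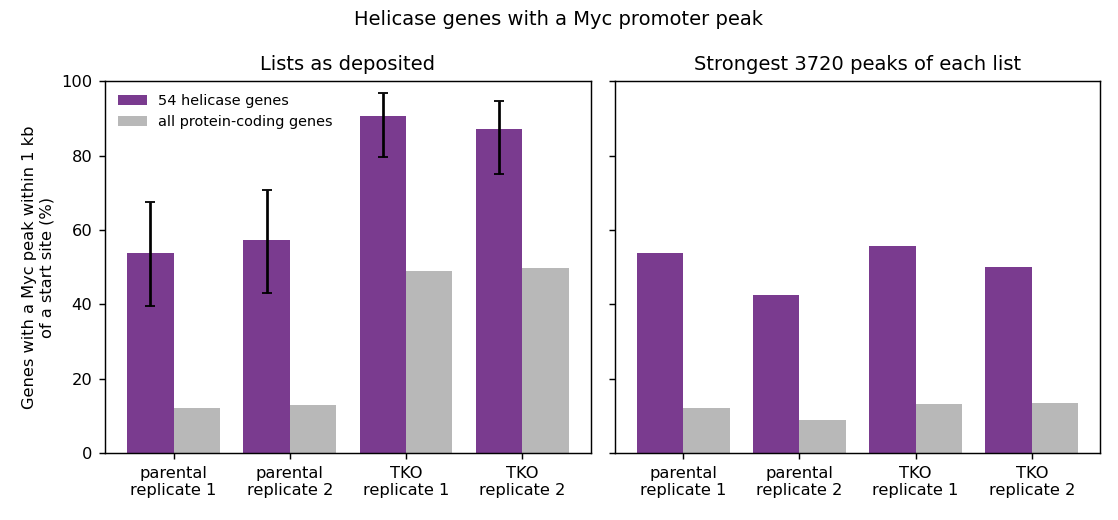
Percent of genes with a Myc peak within 1 kb of a TSS in each library. Bars show the 54 helicase genes and all 19785 protein-coding genes. Lists are as deposited (left) or cut to the same length by highest −log10 p-value (right). Error bars are exact Clopper-Pearson 95% intervals for counting error only; the helicase bars stand at 53.7% and 57.4% in parental and 90.7% and 87.0% in TKO cells on the left, and between 42.6% and 55.6% on the right.

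By presence in the lists, 25 of the 54 genes (46.3%, exact 95% interval 32.6% to 60.4%) were bound in all 4 libraries, beside 9.32% of all genes. These were also all the helicase genes bound in both parental libraries (9.36% of all genes), and 47 were bound in both TKO libraries (87.0%; 45.2% of all genes). Another 10 were bound in 1 parental and both TKO libraries (18.5%; 6.16% of all genes), and 12 in both TKO libraries and no parental library (22.2%; 29.8% of all genes). DDX17 and DDX25 had a peak in TKO replicate 1 alone (8.20% of all genes were bound in 1 TKO library only). DDX3Y, DDX4, DDX43, DDX53 and DHX32 had none, beside 46.3% of all genes. No helicase gene was bound in a parental library without being bound in both TKO libraries.

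The 16 nucleolar helicases, which remodel ribosomal RNA precursors and their snoRNA duplexes, were the largest group, with 12 and 13 bound in parental and all 16 in each TKO library. Of all genes, 12.2% and 12.9% were bound in parental and 49.1% and 49.7% in TKO cells. DDX21, which acts in ribosomal RNA transcription and processing, had the highest fold of any helicase gene in parental cells, 16.3 and 16, with 27.7 and 25.6 in TKO cells. Its peaks ranked 29 and 23 in the parental lists and 72 and 84 in the TKO lists, which differ in length, at percentiles 99.2 and 99.61 and 99.74 and 99.68. Its summits lay at offsets between -94 and 20. DHX33, which promotes ribosomal RNA synthesis, had folds of 9.24 and 7.98 in parental and 18.2 and 23.5 in TKO cells, with summits between offsets of -35 and 0. DDX55, a factor of the large ribosomal subunit, had 8.97 and 6.65 in parental and 22.2 and 20.3 in TKO cells, with summits at offsets between -16 and -4. Both genes were higher in each TKO library than in either parental library.

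DDX51, which acts on the 3′ end of the 28S precursor, had folds of 7.59 and 8.47 in parental and 11.5 and 14.7 in TKO cells. Its summits held only 26 and 18 reads in parental and 26 and 28 in TKO cells, over a background of 2.0 and 1.24 and of 1.34 and 0.971 reads. The peak lies between DDX51 and NOC4L, another nucleolar gene, and belongs to both promoters. DDX31, also nucleolar, had the largest ratio of mean TKO to mean parental fold, 4.67, from 6.54 and 4.83 in parental to 25.6 and 27.5 in TKO cells. Its strongest peak was not at the same place in each library, with offsets of 199 and 12 in parental and 169 and 166 in TKO cells from the nearest of its start sites and summits spread over 575 bp, and it is shared with GTF3C4. DDX54 had folds of 6.4 and 5.19 in parental and 22.9 and 23.4 in TKO cells, at an offset of -112 in parental replicate 1 and near the intronic E-box in the others. DDX18, needed for the large subunit, had folds of 5.65 and 4.74 in parental and 13.7 and 22.6 in TKO cells.

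DDX10, DDX49, DDX50 and DDX56 were bound in all 4 libraries with parental folds between 3.71 and 6.96 and TKO folds between 6.69 and 11.2. DDX49, whose peak is shared with COPE, had the smallest ratio of means of these, 1.31, from 6.19 and 6.02 in parental to 8.85 and 7.09 in TKO cells. DHX37, which releases the U3 snoRNA from the small subunit precursor, was bound in parental replicate 1 at 4.05 and in TKO cells at 12.1 and 13.2. DDX47 was bound in parental replicate 2 at 4.32 and in TKO cells at 8.52 and 9.62. DDX24, whose peak is shared with IFI27L1, stood at 5.18 in parental replicate 2 and at 6.02 and 5.36 in TKO cells, nearly level. DDX27 had TKO peaks alone, at 4.47 and 5.61 in the first coding exon, and so had DDX52, at 6.84 and 7.91.

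**Figure D3:**
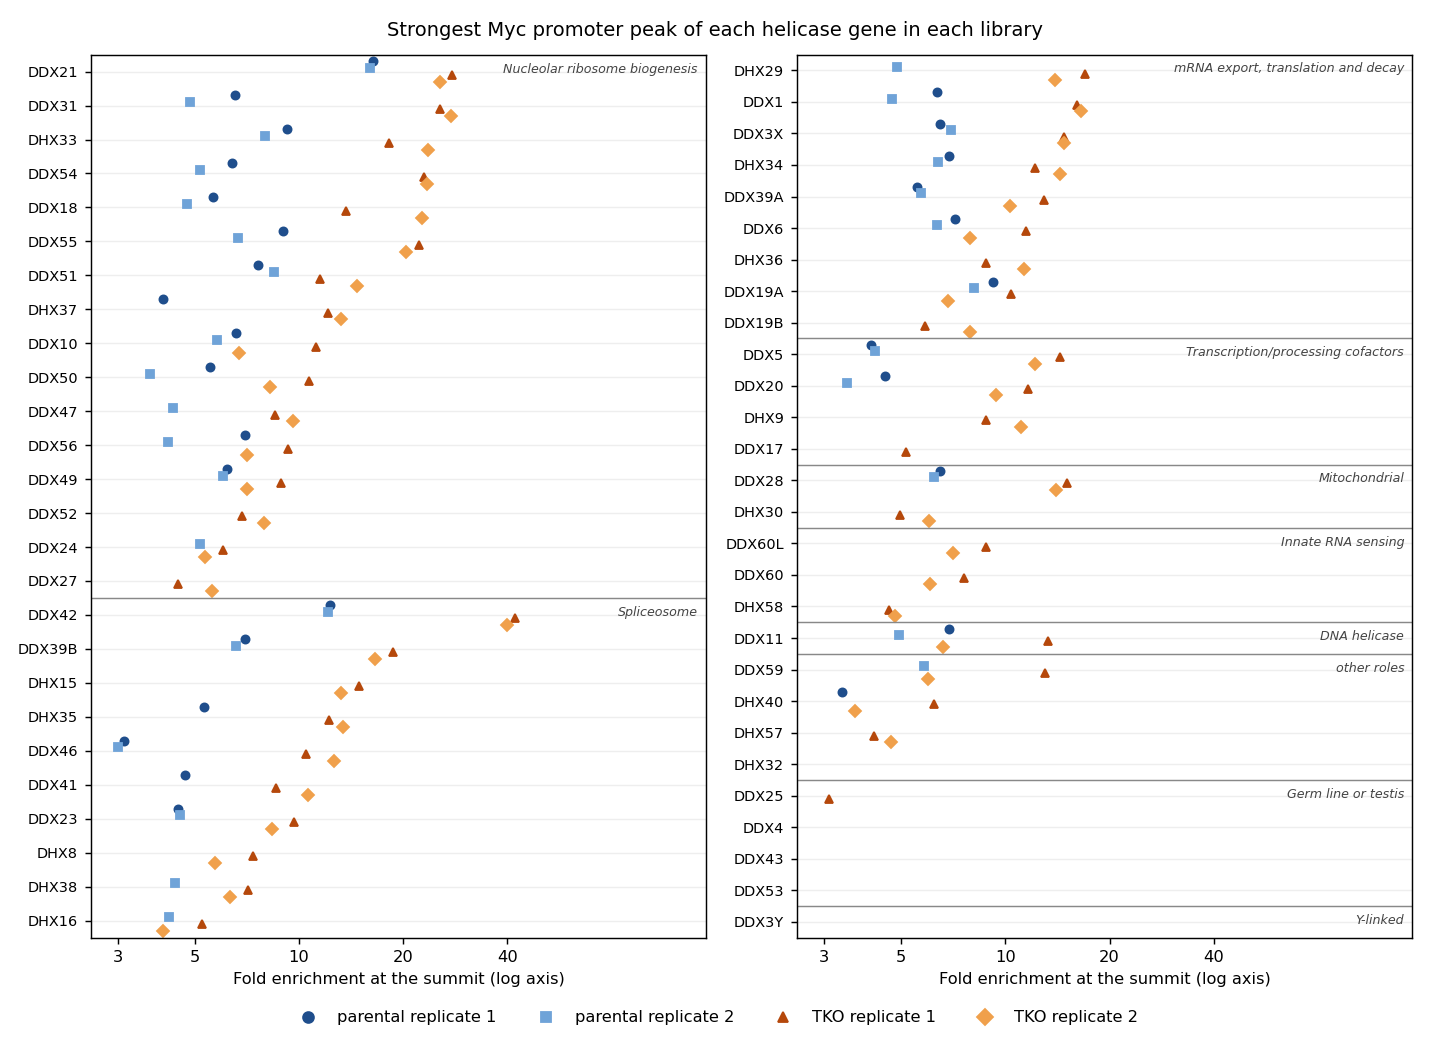
Fold of the strongest Myc promoter peak of each of the 54 helicase genes in each library on a log axis, grouped by role. A missing symbol means no peak. All 16 nucleolar and all 10 spliceosome genes have both TKO symbols (45.2% of all genes were bound in both TKO libraries). DDX42 stands farthest right at 42.0 and 40 in TKO cells.

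Of the 10 spliceosome helicases, which drive the rearrangements of the splicing cycle, 6 were bound in each parental library and all 10 in each TKO library. The shares of all genes were 12.2% and 12.9% in parental and 49.1% and 49.7% in TKO cells. DDX42, a factor of the U2 snRNP, had the strongest peak of all helicase genes in TKO cells, with folds of 12.3 and 12.1 in parental and 42.0 and 40 in TKO cells. Its summits held 146 and 108 reads in parental and 226 and 166 in TKO cells. Among all peaks of a list it ranked 109 and 94 in parental and 5 and 8 in TKO cells. The peak lies between DDX42 and CCDC47 and cannot be assigned to 1 of them. DDX39B, which couples splicing to mRNA export, had folds of 6.97 and 6.57 in parental and 18.7 and 16.6 in TKO cells, and its 4 summits lay within 28 bp of each other.

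DDX46, which acts at the branch point with the U2 snRNP, was the weakest helicase gene in parental cells, with folds of 3.13 and 2.99 at percentiles 2.63 and 2.05. In TKO cells its folds were 10.5 and 12.6, at percentiles 91.2 and 95.1. DDX23, the helicase that releases the U1 snRNP from the 5′ splice site, had 4.46 and 4.53 in parental and 9.70 and 8.36 in TKO cells. In both genes each TKO value was above both parental values.

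Another 4 spliceosome genes were bound in 1 parental library. DHX35, a component of the catalytic spliceosome, was bound in parental replicate 1 at 5.33 and in TKO cells at 12.2 and 13.4. DDX41 was bound in the same parental library at 4.67 and in TKO cells at 8.59 and 10.6. DHX38, the helicase of the second splicing step, had 4.39 in parental replicate 2 and 7.14 and 6.32 in TKO cells. DHX16, which acts just before the first step, had 4.21 in parental replicate 2 and 5.26 and 4.05 in TKO cells, so its TKO and parental values overlapped. The other 2 were bound in TKO cells alone. DHX15, which takes apart the spent spliceosome, had folds of 14.9 and 13.2, at percentiles 97.0 and 95.8, while the nearest parental summits were 653640 and 185970 bp away. DHX8, which releases the spliced mRNA, had 7.37 and 5.73. With the lists cut to equal length DHX15 was the only helicase gene that both TKO lists and neither parental list held.

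All 9 helicases of mRNA export, translation and decay were bound in both TKO libraries, and 6 and 7 of them in parental cells. DDX3X, which helps ribosomes through structured leaders, had folds of 6.48 and 6.98 in parental and 14.8 and 14.8 in TKO cells. DDX1, a subunit of the tRNA ligase complex, had 6.36 and 4.70 in parental and 16.1 and 16.6 in TKO cells. DHX34, a factor of nonsense-mediated decay, had 6.87 and 6.41 in parental and 12.2 and 14.4 in TKO cells, and DDX6, an activator of decapping, had 7.16 and 6.35 in parental and 11.5 and 7.89 in TKO cells. In each of these genes both TKO values were above both parental values.

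DDX19A, which releases mRNA at the nuclear pore, was an exception. Its folds were 9.22 and 8.11 in parental and 10.4 and 6.85 in TKO cells, a ratio of means of 0.998. Its summit reads per 10 M reads of depth, 13.6 and 12.6 in parental and 30.2 and 32.3 in TKO cells, did not overlap, and the background reads at the summit were 2.38 and 2.57 in parental and 4.84 and 5.27 in TKO cells. Its neighbour and close relative DDX19B was bound in TKO cells alone, at 5.87 and 7.89, through a peak at offsets of -324 and -360 that is shared with AARS1.

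DDX39A, a close relative of DDX39B, had 5.55 and 5.70 in parental and 12.9 and 10.3 in TKO cells. In parental replicate 1 and TKO replicate 1 its strongest summit lay 920 and 985 bp past the TSS, and in the other libraries 31 and 3 bp past it. DHX29, which helps the small ribosomal subunit to scan, was bound in parental replicate 2 at 4.87 and in TKO cells at 17 and 13.9. That peak is shared with MTREX, itself a helicase gene of RNA surveillance. DHX36, which unwinds G-quadruplexes, was bound in TKO cells alone, at 8.77 and 11.3.

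The 4 helicases that act as cofactors of transcription and RNA processing had weak or no parental peaks. DDX5, a coactivator also known as p68, had folds of 4.09 and 4.19 in parental and 14.4 and 12.2 in TKO cells, with a summit at -515 in parental replicate 1 and summits 278 to 361 bp past a TSS in the others. DDX20, a partner of the SMN complex, had 4.49 and 3.49 in parental and 11.6 and 9.38 in TKO cells. DHX9, also known as RNA helicase A, had TKO peaks alone, at 8.77 and 11.1. DDX17, the close relative of DDX5, had 1 peak, of 5.15 and 17 reads, in TKO replicate 1.

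DDX28, which helps assemble the mitochondrial ribosome, was bound in all 4 libraries, at 6.49 and 6.23 in parental and 15.1 and 14 in TKO cells, through a peak shared with DUS2. DHX30, the other mitochondrial helicase, was bound in TKO cells alone, at 4.97 and 6.04. The 3 helicases of innate RNA sensing had peaks in each TKO library and in no parental library (as had 29.8% of all genes). Their folds were 8.79 and 7.08 at DDX60L, 7.62 and 6.05 at its neighbour DDX60, and 4.62 and 4.79 at DHX58, the RIG-I-like receptor LGP2.

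DDX11, a DNA helicase of sister chromatid cohesion, had folds of 6.86 and 4.92 in parental and 13.3 and 6.62 in TKO cells, which overlapped. Among the 25 helicase genes bound in all 4 libraries the cell lines overlapped in fold at DDX19A and DDX11 alone. A near copy of DDX11, the pseudogene DDX12P, had a TKO summit 353 bp from its start in both replicates, at 12.6 and 12.5. Reads from the copies may be exchanged between them, so both values are uncertain.

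Of the 4 genes of other roles, DDX59 was bound in parental replicate 2 at 5.84 and in TKO cells at 13.0 and 6.0, with offsets of -614, -598 and -596. DHX40 stood at 3.37 in parental replicate 1 and at 6.23 and 3.67 in TKO cells, and DHX57, whose peak is shared with MORN2, at 4.17 and 4.67 in TKO cells alone. The percentiles of DHX57 were 21.5 and 26.8.

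Of the 5 genes without a promoter peak, 3 are of the germ line or testis: DDX4, the human Vasa, and DDX43 and DDX53, which are cancer-testis antigens. The nearest TKO summits were 25416 and 25516 bp from DDX4, 5561 and 5817 bp from DDX43 and 667394 and 667402 bp from DDX53. DDX25, a testis helicase, had a single peak in TKO replicate 1 of fold 3.09, at percentile 3.41, shared with PUS3. DDX3Y, the Y-linked relative of DDX3X, had none either. DHX32 had no summit within 1 kb of a TSS of the basic transcripts, but a TKO peak of 4.38 and 5.13 lay inside the gene 14498 and 14586 bp upstream of the nearest such site, next to FANK1. When every annotated transcript was counted, DHX32 became bound in both TKO libraries and no other helicase gene was added.

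Among the 25 genes bound in all 4 libraries, the fold was higher in both TKO libraries than in both parental ones at 23 (92.0%), beside 92.0% of the 1843 such genes overall. The median ratio of mean TKO to mean parental fold was 2.19, ranging from 0.998 at DDX19A to 4.67 at DDX31, beside a median of 2.0 over all 1843 genes. Without DDX31, DDX39A, DDX5 and DDX54, whose summits lay over 200 bp apart, the median over 21 genes was 2.05. In summit reads per 10 M, which are not divided by the background, all 25 genes were higher in both TKO libraries, beside 99.0% of all genes, with a median ratio of 2.48 and a range from 1.93 at DDX51 to 6.80 at DDX31 (2.56 over all genes). These reads may carry longer fragments in the TKO libraries. The extension, taken as the width of the narrowest peak of each list, was 182 and 201 bp against 140 and 151 bp in parental cells. The part of that length in the ratio was not tested.

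**Figure D4:**
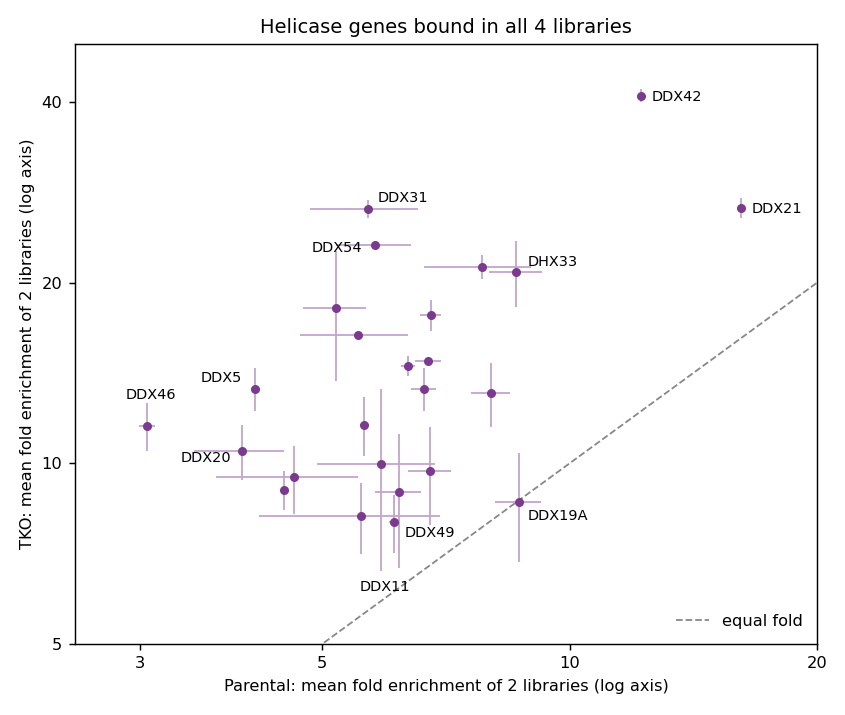
Mean fold of 2 TKO libraries against mean fold of 2 parental libraries on log axes for the 25 helicase genes bound in all 4 libraries, with bars to the lower and higher replicate. Above the dashed line of equal fold the TKO mean is higher; DDX19A lies on it with a ratio of 0.998, and DDX31, at 4.67, is the farthest above it.

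Ordered by their strongest promoter peak, the 25 genes had a median rank of 846 and 1104 in parental cells, among 2418 and 2550 bound genes. In TKO cells it was 1070 and 798, among 9719 and 9843 (p = 0.667, exact permutation test of the medians). For all 1843 genes bound in all 4 libraries the median rank was 1056 and 1104 in parental and 1175 and 1225 in TKO cells. These ranks come from sets of very different size. Their median percentile in the lists was 70.6 and 63.6 in parental and 95.6 and 96.6 in TKO cells, as for all 1843 genes, 63.1, 63.6, 95.1 and 94.7. In the TKO lists the genes bound in all 4 libraries stood above those bound in TKO cells alone, whose median percentile was 74.1 and 65.1. Over both TKO lists the gap averaged 26.5 percentile points, beside 32.0 for all genes of these classes. The classes were set by the parental lists, and this difference is a description. Genes bound in 1 parental library lay between them, at 84.3 and 75.8.

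Over every bound helicase gene, the median percentile was 69.7 and 49.6 in parental and 91.6 and 88.7 in TKO cells (p = 0.333 in the exact test). For all bound genes it was 56.8, 56.8, 71.0 and 70.6. These lists differ in length. Cut to the same length they gave helicase medians of 69.7 and 52.4 in parental and 66.9 and 76.0 in TKO cells, which overlapped. In the TKO lists as deposited, 27 and 23 helicase genes had a peak at percentile 90 of their list or above. These were 55.1% and 48.9% of those bound, against 22.0% and 20.9% of all bound genes. In parental cells the shares were 13.8% and 12.9%, against 13.2% and 14.7%.

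Myc summits lay close to the start sites of helicase genes. The median distance from summit to TSS was 58.0 and 61.0 bp in parental and 94.0 and 89.0 bp in TKO cells, a difference of 32.0 bp between the means of 59.5 ± 2.12 and 91.5 ± 3.54 (SD, n = 2, p = 0.333, exact permutation test). Over all bound genes the medians were 108 and 108 bp in parental and 150 and 146 bp in TKO cells. The difference at helicase genes was 18.0 bp with lists of equal length and 13.2 bp with all transcripts counted (p = 0.667 each, exact permutation test). Within 100 bp of a TSS lay 18 of 29 and 21 of 31 helicase summits in parental and 26 of 49 and 28 of 47 in TKO cells. These are 62.1%, 67.7%, 53.1% and 59.6%, beside 47.8%, 47.8%, 37.8% and 39.1% of all bound genes. Most parental summits were upstream, at 17 and 20 genes against 12 and 11 downstream, whereas in TKO cells 23 and 19 were upstream and 25 and 28 downstream. The upstream shares were 58.6%, 64.5%, 46.9% and 40.4%, beside 61.5%, 66.8%, 55.4% and 55.9% over all bound genes. Summits of replicates lay a median of 40 bp apart at the 25 genes bound in both parental libraries and 36 bp apart at the 47 bound in both TKO libraries. The peaks were also broader in TKO cells, with a median width of 736 and 698 bp against 255 and 250 bp, beside 468, 475, 243 and 241 bp over all bound genes.

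**Figure D5:**
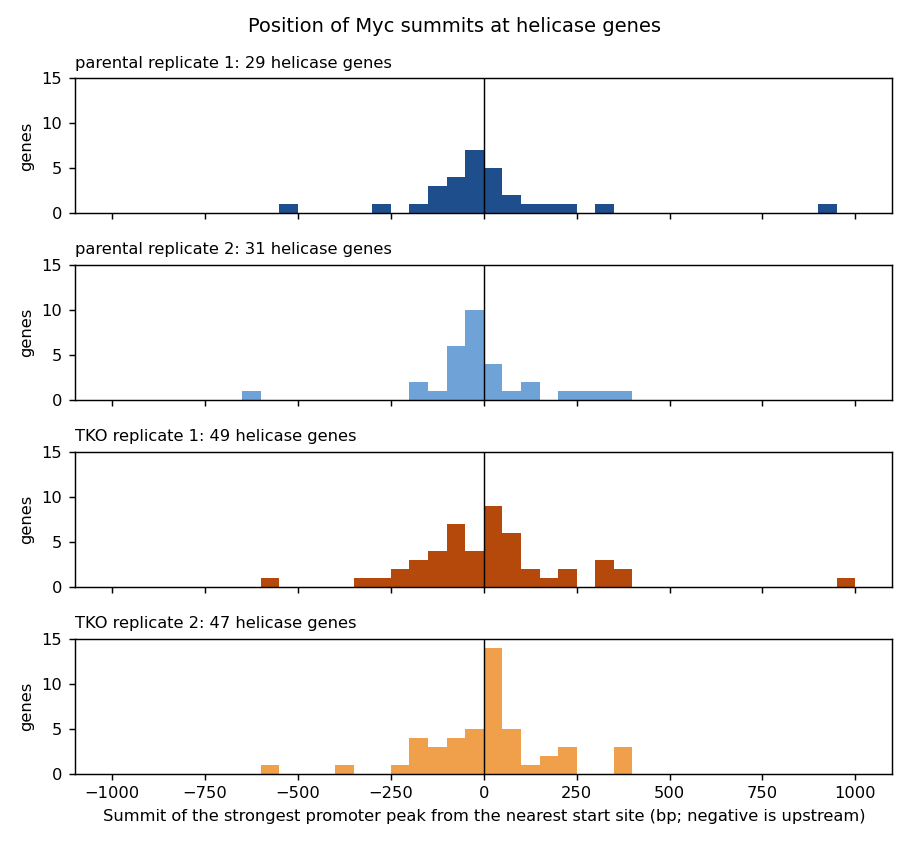
Number of helicase genes by the offset of the summit from the nearest TSS, in bins of 50 bp, for each library; negative is upstream. The counts gather within 100 bp of the TSS, at 18, 21, 26 and 28 genes in the order of the panels, and DDX39A in replicate 1 of each cell line is the bar near the right edge.

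Several of these promoters face another gene. A peak within 1 kb of a start site of another protein-coding gene was found at 7 of 29 and 9 of 31 bound helicase genes in parental and at 12 of 49 and 11 of 47 in TKO cells. These are 24.1%, 29.0%, 24.5% and 23.4%, beside 31.5%, 31.7%, 24.4% and 24.7% of all bound genes. The peaks of DDX28, DDX31, DDX42, DDX49, DDX51 and DDX54 were shared in all 4 libraries. The peak lists do not tell which gene of such a pair a peak belongs to.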

How the data were processed

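Myc ChIP-seq of MDA-MB-231 parental and TKO cells was analysed from 1 peak list for each of 4 libraries; the 2 input samples had no list here. Groups and replicate numbers came from the sample titles. The study gives single-end reads aligned to hg19 with Novoalign (3.08.02 in the submitters' processing notes) and peaks called per library with MACS2 (2.1.1.20160309) at a p-value cutoff of 0.01. The deposited lists end at a −log10 q-value of 2.03 to 2.07, and how duplicate reads were handled is not given in the sources used here. The authors' fold is the ratio of scaled reads at a summit to those expected there, with 1 added to each. The scale was 0.837 and 0.997 in parental and 1.00 in both TKO libraries. Summit reads are given here unscaled, and background reads as scaled. The deposited score is the −log10 q-value multiplied by 10 and truncated. The −log10 p-value and −log10 q-value are also the authors'.

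Summits were assigned to genes with GENCODE release 44 lifted to GRCh37, over 19785 protein-coding genes and 55869 start sites of basic transcripts. Whole summit reads were solved from fold and −log10 p within 0.002 for 100% of peaks, and depth from an assumed genome size of 2700000000 bases. Motifs were searched on both strands within 50 bp of the summit. Intervals are exact Clopper-Pearson 95% and cover counting error only. The test between cell lines was an exact permutation over libraries, two-sided.

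The members, role groups and lists were chosen with earlier results of these data known. All members are accounted for. Values per library are given for the 10 genes bound in all libraries and the 10 bound in TKO cells alone that had the highest mean percentile, for genes bound in 1 library of a cell line or in none, for genes with an E-box in every library where bound if in 3 or more, and for the ends of a range. Other members named with values, among them DDX1, DDX5, DDX18, DDX31, DDX46 and DDX54, were chosen after their values were seen. 1 gene of the list of other helicases is counted but not reported singly here. The steps were tested on simulated data. The alternatives were equal list lengths, a minimum of 5 on −log10 q-value or on fold, a TSS window of 500 bp or 3 kb, an E-box window of 100 bp, ranking by −log10 p-value, all transcripts, each library left out and a replicate block. The software was samtools 1.23.1 and Python 3.11.15 with pysam 0.24.0, pandas 2.3.3, scipy 1.17.1, numpy 2.4.6 and matplotlib 3.10.9.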

Additional observations from a re-analysis of the deposited data

How the results depend on the processing

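The number of bound helicase genes was 1.60 times higher in TKO than in parental cells. Under the alternatives run on it the ratio was between 1.10 (equal list lengths) and 2.23 (a fold of at least 5). Relative to all bound genes it was 0.406, a value that the ceiling on the helicase share in TKO cells limited. With lists of equal length 1 helicase gene, DHX15, was bound in TKO cells alone, against 12, and the share of helicase genes was 4.55 and 3.93 times that of all genes in parental and TKO cells, against 4.42 and 1.80 (equal lengths for these shares were chosen after seeing the data). The lengths themselves were made equal there. At a fold of at least 5, 15 helicase genes were bound in both parental libraries, against 25.

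The difference in E-box share, 0.768 percentage points with TKO higher, changed sign at a −log10 q-value of at least 5 (-1.70), a fold of at least 5 (-0.737), a TSS window of 500 bp (-0.950) and an E-box window of 100 bp (-5.65). It ranged from -6.16 to 7.69 with a library left out. The sign changed without TKO replicate 1 (-6.16) and without parental replicate 2 (-3.13). The cause was not tested.

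Genes bound in all libraries stood 26.5 percentile points above genes bound in TKO cells alone in the TKO lists, 16.4 at a fold of at least 5, 17.4 with equal lists, 20.2 with peaks ranked by −log10 p-value and 17.9 to 31.5 with a library left out (32.0 over all genes). Ranked that way, the median percentile of helicase peaks was 27.1 points higher in TKO cells, against 30.5. With equal lists it was 10.4 points higher (p = 0.667, exact permutation test). In the TKO lists the E-box share was 15.8 points higher at genes bound in all libraries than at genes bound in TKO cells alone. Over all genes of these classes the gap was 15.7. At helicase genes it was 38.5 with equal lists and 3.73 to 20.9 with a library left out, lowest without parental replicate 1. With equal lists this gap and the percentile gap of 17.4 set 13 genes bound in all libraries against 1 gene, DHX15. The median ratio of fold was 2.19, 2.06 at a fold of at least 5, 2.61 with equal lists (over those 13 genes) and 2.1 to 2.30 with a library left out.

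Replicate numbers are the same in both cell lines, but the sources do not say whether same-numbered libraries were paired. Their fold deviations correlated at 0.0659 over 1843 genes. That correlation cannot decide it, because it does not see an effect that shifts all genes of a library alike. With the replicate block the ratio of bound genes was 1.60 and the median ratio of fold 2.20, and the smallest p of the paired permutation is 0.50. With 2 libraries a group the exact permutation test cannot pass 0.05, and a missing peak in a parental list is one that was not detectable at its threshold, not absent binding.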

Other observations

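Of the helicases of the same superfamily under other symbols, 6 and 7 of 19 were bound in parental and 14 and 16 of 19 in TKO cells (the share of all genes was 12.2%, 12.9%, 49.1% and 49.7%). EIF4A1, the helicase of translation initiation, was the strongest, with folds of 14.1 and 15.6 in parental and 24.7 and 23.6 in TKO cells. Its relative EIF4A2 had 8.14 and 5.74 in parental and 18.1 and 13.9 in TKO cells. SNRNP200, which unwinds U4 from U6 in the spliceosome, had 6.24 and 6.24 in parental and 9.92 and 9.56 in TKO cells. RIGI and IFIH1, the RNA sensors related to DHX58, were bound in TKO cells alone, as DHX58 was, at 7.65 and 7.15 and at 4.62 and 7.15. UPF1 had a peak in TKO replicate 2 alone, and TDRD9, DQX1 and HELZ had none.

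The protein partners of helicases, which carry G-patch or MIF4G domains among others, form another list. Of 30 annotated, 5 and 8 were bound in parental cells (16.7% and 26.7%, beside 12.2% and 12.9% of all genes) and 30 in each TKO library (49.1% and 49.7% of all genes), with 22 bound in TKO cells alone (29.8% of all genes). PINX1, a G-patch partner of DHX15, was the strongest in parental cells, at 10.3 and 11.3, and had 15.6 and 14.9 in TKO cells. DHX15 itself had no parental peak. NKRF, TFIP11, GPATCH1 and RBM17 were bound in TKO cells alone, with folds between 5.28 and 10.6. NOM1, a nucleolar MIF4G protein, was bound in all 4 libraries at 6.53, 4.19, 9.69 and 12.5, and CHERP at 5.08, 5.99, 5.06 and 6.26, with overlapping cell lines.

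Peaks also fell inside helicase genes away from their promoters. Over 1 kb from every start site of the gene there were 0 and 1 such peaks in parental and 9 and 11 in TKO cells, in 3 and 5 genes of the TKO lists. The lists held 3720 and 5719 peaks in parental and 27213 and 25887 in TKO cells. The same count over all genes is not given here, so the difference cannot be read as one of helicase genes. In TKO replicate 1 most of the peaks inside helicase genes were in DHX8, whose annotated span takes in ETV4, and several lay at the promoter of that gene. DDX6 had 2 weak peaks 1729 and 2293 bp from a start site in TKO replicate 2, and DHX9 had 1 at 30227 bp.

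The sequence within 250 bp of the start sites of the 25 genes bound in all libraries had a median GC content of 62.7%, from 43.5% at DDX20 to 76.8% at DDX51, beside 63.7% for all genes of that class. The 12 genes bound in TKO cells alone had 59.2%, beside 65.9%.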
